A study of Mus musculus with 15 samples.

Results

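In mouse embryos whose mothers lacked Usp16 in the oocyte, 40 genes of 14392 (0.278%) stood over 3-fold higher at the 2-cell stage than in WT 2-cell embryos, where their transcripts had fallen over 3-fold since the zygote. They were chosen from group means of FPKM, the count of fragments scaled to transcript length and to library size. The WT zygote mean was over 3 times the WT 2-cell mean, and the cKO 2-cell mean was over 3 times the WT 2-cell mean, with genes of Zfp symbol left out. Zfp873 met both ratios and was the 1 gene left out for its symbol. The WT zygote, WT 2-cell and cKO 2-cell values therefore chose the genes and are given here as a description, while the cKO zygote libraries took no part in the choice.

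The embryos came from 4 groups with 2 libraries each, of 10 pooled embryos a library, sequenced after Smart-seq2, which amplifies full-length cDNA primed on poly(A). The WT zygotes and WT 2-cell embryos were the controls. The cKO zygotes and cKO 2-cell embryos came from Usp16 fl/fl;Gdf9-Cre females mated with WT males, so they lacked the maternal Usp16 allele (Usp16 maternal -/ paternal +) and kept a paternal copy. Gdf9-Cre recombines in oocytes from the primordial follicle on, so the gene had been absent through oocyte growth and not only after fertilization. All mothers were C57BL/6 females aged 21 to 23 days that had been superovulated, and the embryos were grown in KSOM medium. No source used here says whether the replicates came from separate females, so p-values measure only the spread between these libraries, which may be technical.

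USP16 is a deubiquitinase that removes the single ubiquitin from H2AK119, a lysine of histone H2A, a mark that Polycomb repressive complex 1 lays down and that goes with gene silencing. A growing mouse oocyte stores a large stock of mRNA, because transcription stops before ovulation and starts again only after fertilization. Most of this stock is deadenylated and degraded between meiotic maturation and the 2-cell stage, when the embryo's own genome becomes active. A transcript can therefore be high at the 2-cell stage because it was not removed or because it was made anew, and a library of pooled embryos does not tell these apart. Reads are scaled to the library total, so FPKM follows the share of a transcript among all transcripts and not its amount per embryo, and poly(A) priming reads the tail as well as the RNA.

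Usp16 itself checked the labels. Its FPKM was 184 and 187 in WT zygotes and 16.8 and 22.0 in cKO zygotes. At the 2-cell stage it was 168 and 183 in WT and 168 and 84.8 in cKO embryos, which carry the paternal copy. The zygote libraries were rich in the oocyte genes Gdf9 and Bmp15, and the 2-cell libraries held Zscan4d and Zfp352. No oocyte library is in the table, so that the RNA of the 40 genes was maternal was taken from its presence in zygotes and was not measured. Summed FPKM was 547752 to 593317 in 7 libraries and 770989 in cKO 2-cell replicate 2. Of 35 cumulus and granulosa cell markers, 12 were in the table, and Cyp19a1 was the only one above the floor in 3 of the 4 zygote libraries, at 22.3 to 26.7 over the 4. At the 2-cell stage 9 and 11 of the 12 were above the floor in the WT libraries and 6 and 4 in the cKO libraries, with summed FPKM of 73.0 and 98.9 against 46.4 and 46.8. Of 8 measured blood, immune and fibroblast markers, 7 and 8 were above the floor in WT and 5 and 4 in cKO 2-cell libraries, with sums of 40.3 and 47.1 against 16.1 and 15.9. Of 21 measured sperm and spermatid markers, 12 and 14 were above the floor in WT and 10 and 12 in cKO 2-cell libraries. Their sums were not lower in cKO, at 101 and 130 in WT against 112 and 149. The part of these cells in the 2-cell comparison was not tested.

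The choice set both the fall of the genes in WT and their higher level in the mutant. In WT embryos 1263 genes, 8.78% of the table, fell over 3-fold from zygote to 2-cell stage, and the 40 genes were at a median 21.2% of their zygote mean, against 22.4% for the other 1223. Both sets were cut at the same 3-fold fall, so their near medians are largely built in. In cKO embryos the 40 genes were at a median 79.9% of the cKO zygote mean, against 12.9% for the other 1223, a difference that the choice of high cKO 2-cell values largely fixes. The genes over 3-fold higher in cKO than in WT 2-cell embryos numbered 409, 2.84% of the table. Their share among declining genes was 3.25%, close to the 2.80% among the genes that fell less than 3-fold or not at all. By contrast 182 declining genes, 14.4%, were over 3-fold lower in cKO. The median gene of the table stood at 0.771 of its WT level in cKO 2-cell embryos.

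**Figure D1:**
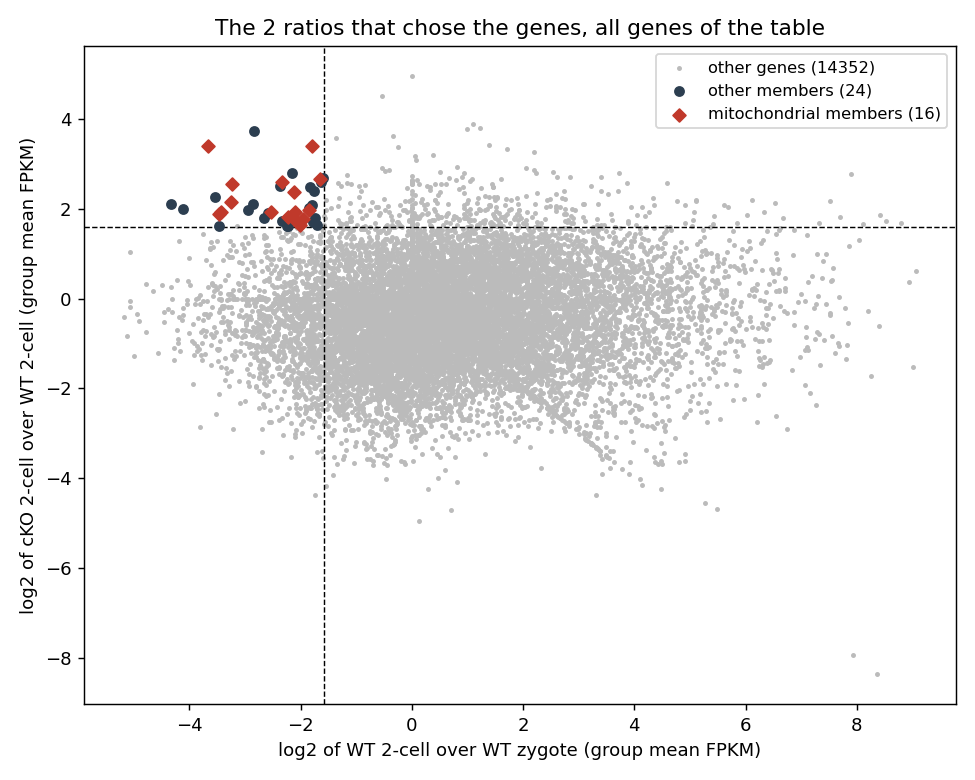
Each point is a gene, placed by the log2 ratio of WT 2-cell to WT zygote mean FPKM (horizontal) and of cKO to WT 2-cell mean FPKM (vertical), with dashed lines at the 3-fold thresholds. The 40 genes fill the upper left corner by construction, and 1 grey point there is Zfp873; most other genes that fell over 3-fold in WT lie at or below 0 on the vertical axis.

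The 40 genes held 16 of mitochondria, a grouping made after the genes were seen and described here without a test. The share of mitochondrial genes over the table or among the declining genes was not taken, so the 16 are not called particular to this group. The rule found only 8 of these 16 without WT 2-cell replicate 2 and 9 without cKO 2-cell replicate 2. Of these, 9 belonged to the mitochondrial ribosome and its translation, and 7 to the respiratory chain, the tricarboxylic acid cycle and the inner membrane. A further 7 act in transcription and RNA processing, 6 in cytosolic translation and protein homeostasis and 6 in membrane traffic and lipid modification, and 5 had another role or none known. None of the 40 belonged to the lists of mRNA decay, maternal mRNA storage, oocyte identity, meiosis, 2-cell genes or the H2AK119 ubiquitin cycle. Each list had only 27 to 39 genes in the table, of which the 40 genes are 0.278%, so nothing is read from this absence.

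These lists hold the machinery and the better known cargo of the same transition. Of 39 measured genes of mRNA decay and deadenylation, 10 declined over 3-fold in WT, and at the 2-cell stage limma called 3 higher and 8 lower in cKO. Of 27 genes of maternal mRNA storage and translation, 6 declined, and 2 were called higher and 9 lower. Of 35 genes of the H2AK119 ubiquitin cycle, 6 declined, and 2 were called higher and 8 lower, where over the table as a whole 887 were called higher and 3538 lower. This balance depended on the scaling. With scaling to the median ratio the table had 1437 higher and 1747 lower, and these 3 lists had 5 and 5, 4 and 4, and 8 and 5, while with scaling to the same sum the table had 552 higher and 4065 lower. Of 39 genes of meiosis and M-phase 9 declined, with 1 called higher and 6 lower, and of 31 early 2-cell genes 0 declined, with 4 called higher and 16 lower (6 and 6 with scaling to the median ratio). The oocyte identity list, with zona and oocyte growth factor genes, had 35 genes in the table, of which 21 declined over 3-fold in WT. In cKO 2-cell embryos 0 of the 35 were over 3-fold higher and 12 were over 3-fold lower. Of all 14392 genes, 409 (2.84%) were higher in this way and 1940 lower, so nothing is read from the 0. With limma 1 of the 35 was called higher and 18 lower. These calls, too, depended on the scaling, with 0 and 5 after scaling to the median ratio and 1 and 20 after scaling to the same sum.

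**Figure D2:**
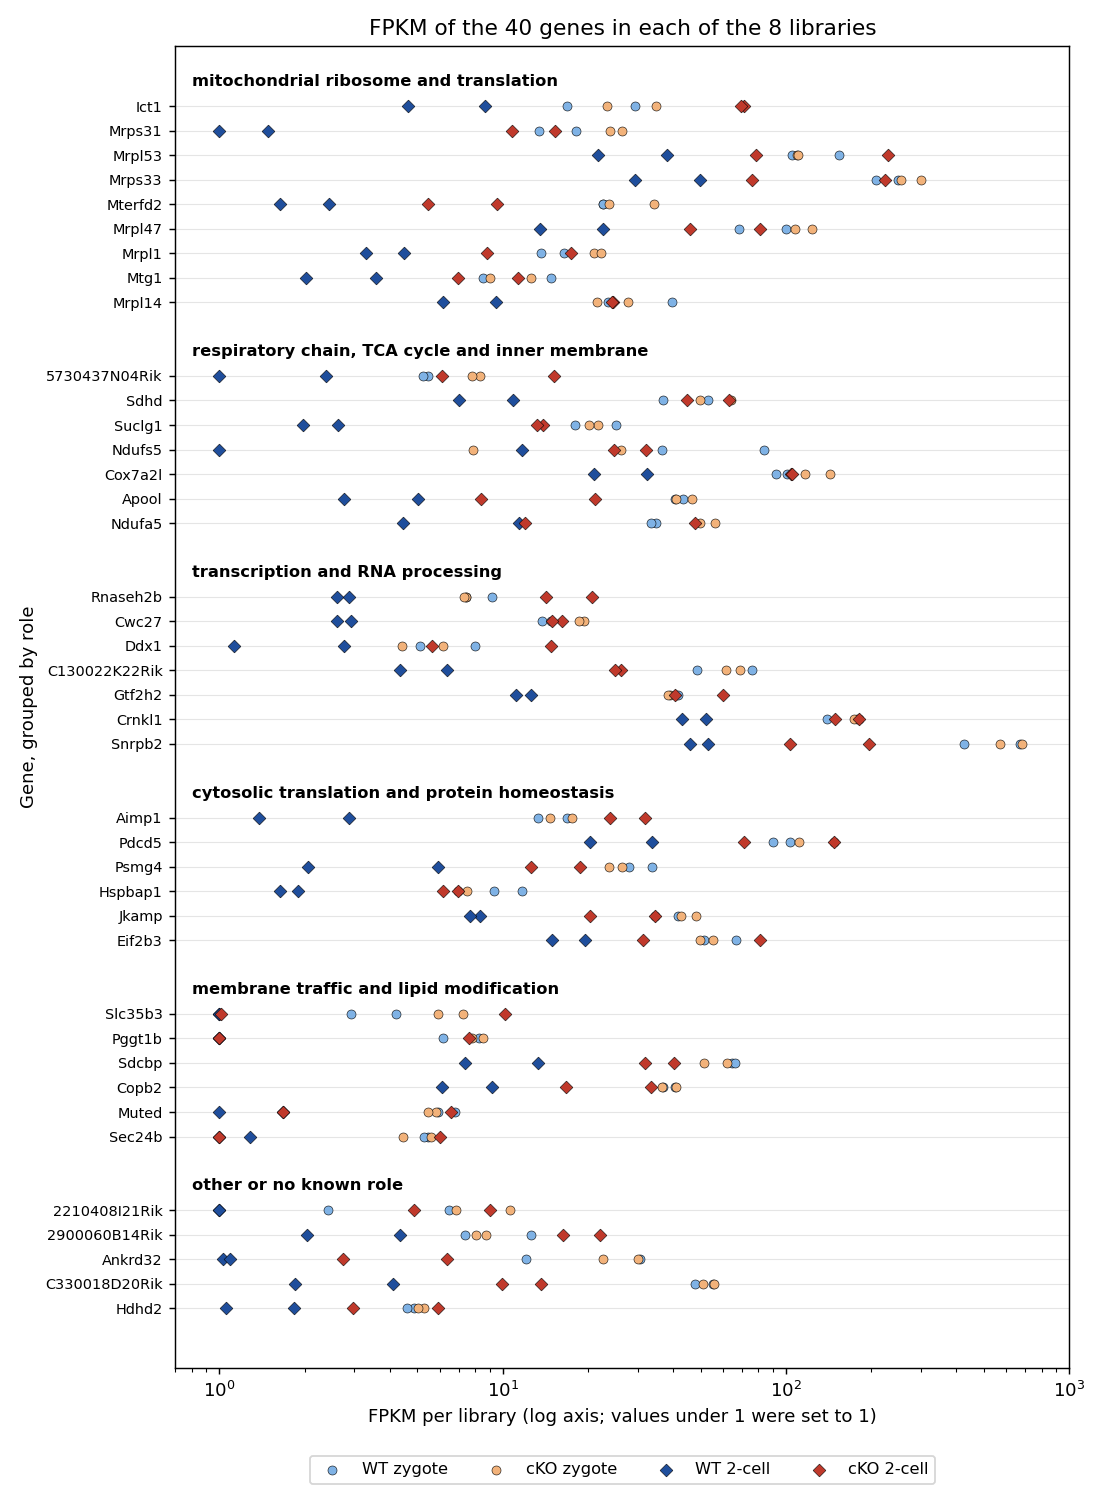
FPKM of the 40 genes (rows, grouped by role) in each of the 8 libraries on a log axis, with circles for zygotes and diamonds for 2-cell embryos. The cKO 2-cell diamonds sit among or near the zygote circles for most genes and to the right of both WT 2-cell diamonds for 37 genes, while for Slc35b3, Pggt1b, Muted and Sec24b 1 of the cKO diamonds lies at or close to a WT one.

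Both cKO 2-cell libraries lay above both WT 2-cell libraries for 37 of the 40 genes, where 14.0% of the table did so. Each cKO library was over 3 times each WT library for 13 of them, against 0.771% of the table, and each WT zygote library over 3 times each WT 2-cell library for 24, against 5.80%. With limma on log2(FPKM + 1), 33 of the 40 passed an adjusted p of 0.05 as higher in the cKO group of the 2-cell stage, where 6.16% of the table did, and 35 passed as lower in WT 2-cell embryos than in WT zygotes, where 15.5% did, but these counts follow from the choice and nothing is read from them. When only the 4 libraries of the 2-cell stage entered the fit, 0 genes of the table were called higher and 0 lower, and 29 of the 40 had an unadjusted p under 0.05. The table share under that unadjusted p was not taken, and nothing is read from the 29. The 7 genes not called with all libraries were Ankrd32, Muted, Ndufa5, Ndufs5, Pggt1b, Sec24b and Slc35b3.

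Among the genes of mitochondrial protein synthesis, Ict1 (Mrpl58 in RefSeq) encodes a peptidyl-tRNA hydrolase built into the mitochondrial large subunit. Its FPKM was 29.3 and 16.9 in WT zygotes, 34.9 and 23.3 in cKO zygotes, 8.69 and 4.63 in WT 2-cell embryos and 71.0 and 69.4 in cKO 2-cell embryos. The cKO 2-cell libraries were above every other library, 10.5-fold over the WT 2-cell mean. Mrps31, a protein of the small mitochondrial subunit, was at 18.2 and 13.4 in WT zygotes, 26.5 and 23.9 in cKO zygotes, 1.48 and 1.00 in WT 2-cell embryos and 10.8 and 15.3 in cKO 2-cell embryos. It had nearly vanished from WT embryos, and in cKO embryos it fell to 51.7% of the zygote mean. The fold between genotypes was 10.5 as well.

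The other genes of the mitochondrial ribosome had smaller folds over WT, and for most of them the cKO libraries lay further apart. Mrpl53, of the large subunit, was at 38.0 and 21.8 in WT 2-cell embryos and at 78.2 and 230 in cKO 2-cell embryos, beside 105 to 154 over the 4 zygote libraries. Mrps33 was the most abundant in zygotes, at 209 to 300 over the 4 libraries. It was at 49.7 and 29.4 in WT and 75.7 and 224 in cKO 2-cell embryos, so that 1 cKO library was within the zygote range and the other closer to the WT level. Mrpl47, at 22.7 and 13.6 in WT and 45.7 and 81.1 in cKO 2-cell embryos, and Mrpl1, at 4.47 and 3.29 against 8.84 and 17.5, showed the same order of libraries. Mrpl14 had cKO libraries close together, at 24.6 and 24.3 against 6.17 and 9.51 in WT.

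Mtg1 and Mterfd2 serve the assembly of the mitochondrial ribosome, the first as a GTPase and the second (Mterf4 in RefSeq) as a partner of an rRNA methyltransferase. Mtg1 was at 3.57 and 2.03 in WT and 11.4 and 6.96 in cKO 2-cell embryos. Mterfd2 was at 1.65 and 2.44 in WT and 5.47 and 9.58 in cKO 2-cell embryos, only 26.0% of its cKO zygote mean. Mterfd2 was thus higher than in WT, as the rule requires, and still lower than in the cKO zygote (log2 change from cKO zygote to cKO 2-cell -1.83, SE 0.328). This change uses the cKO 2-cell libraries that chose the gene and is a description.

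Of the genes of energy metabolism, Sdhd encodes the small membrane anchor of succinate dehydrogenase, which is complex II of the respiratory chain and an enzyme of the tricarboxylic acid cycle. Its FPKM was 53.3 and 36.9 in WT zygotes, 64.0 and 49.8 in cKO zygotes, 10.9 and 7.01 in WT 2-cell embryos and 44.7 and 63.0 in cKO 2-cell embryos. The cKO embryos thus held 94.7% of their zygote mean and the WT embryos 19.8%, and the 2-cell libraries of the 2 genotypes did not overlap, with a 6.02-fold difference of means. Suclg1, the alpha subunit of succinyl-CoA ligase, the step before, was at 18.0 to 25.1 over the 4 zygote libraries, 1.97 and 2.63 in WT 2-cell and 13.9 and 13.2 in cKO 2-cell embryos. Its cKO libraries differed by less than its WT zygote libraries did.

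Cox7a2l, a factor of respiratory supercomplex assembly, was at 32.3 and 21.0 in WT 2-cell embryos and 104 and 105 in cKO 2-cell embryos, beside 92.0 to 143 in zygotes. Of the complex I genes, Ndufa5 was at 4.45 and 11.4 in WT and 12.0 and 48.0 in cKO 2-cell embryos, where the lower cKO library was close to the upper WT library. The libraries of Ndufs5 lay over 2-fold apart in every group but the cKO 2-cell embryos, at 83.9 and 36.7 in WT zygotes, 26.2 and 7.85 in cKO zygotes, 11.7 and 1.00 in WT 2-cell embryos and 24.7 and 32.1 in cKO 2-cell embryos. It was the gene with the lowest ratio of cKO to WT zygotes, 0.282. Apool, of the inner membrane cristae complex, was at 5.03 and 2.75 in WT and 8.37 and 21.1 in cKO 2-cell embryos, 33.8% of its cKO zygote mean. 5730437N04Rik (Tmem242 in RefSeq), of the inner membrane, was at 2.38 and 1.00 in WT and 6.12 and 15.1 in cKO 2-cell embryos.

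The mitochondrial gene families were set beside these members as background. Of 76 genes of mitochondrial ribosomal proteins in the table, 15 declined over 3-fold in WT and 20 (26.3%) were over 3-fold higher in cKO 2-cell embryos, 6 of them members of the group described here. The family median of the cKO to WT ratio at the 2-cell stage was 1.86. Of 41 Nduf genes 6 and of 25 Cox genes 5 were over 3-fold higher. Of 21 genes of the Tomm and Timm translocases 7 were, and none of the 21 declined over 3-fold in WT. The cytoplasmic ribosomal proteins, 97 genes, had the larger share, with 41 (42.3%) over 3-fold higher, but none of them declined over 3-fold in WT and none was therefore a member. A higher level in cKO 2-cell embryos was thus found for genes of these families that fell in WT and for others that rose.

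The genes of RNA processing included the gene with the highest level of the 40. Snrpb2, a protein of the U2 small nuclear ribonucleoprotein, was at 426 and 671 in WT zygotes, 571 and 683 in cKO zygotes, 53.0 and 45.9 in WT 2-cell embryos and 103 and 197 in cKO 2-cell embryos. It was the gene just inside the cKO threshold, at 3.04-fold, and at 24.0% of its cKO zygote mean it had fallen in both genotypes (log2 change from cKO zygote to cKO 2-cell -2.12, SE 0.374). This change, too, uses the cKO 2-cell libraries that chose the gene and is a description. Crnkl1, a core spliceosome protein, was at 43.1 and 52.1 in WT and 182 and 149 in cKO 2-cell embryos, beside 139 to 181 in zygotes. Cwc27, a cyclophilin of the spliceosome, was at 2.92 and 2.61 in WT and 16.2 and 14.9 in cKO 2-cell embryos, beside 13.8 to 19.4 in zygotes. The cKO 2-cell libraries of Cwc27 thus lay within the range of the zygote libraries and those of Crnkl1 within or just above it, with the WT 2-cell libraries far below.

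Rnaseh2b, a subunit of the ribonuclease that removes RNA from RNA:DNA hybrids, went the other way over time in the 2 genotypes. It was at 7.40 and 9.16 in WT zygotes, 7.46 and 7.31 in cKO zygotes, 2.86 and 2.61 in WT 2-cell embryos and 14.3 and 20.6 in cKO 2-cell embryos. The cKO 2-cell libraries were above all zygote libraries. Gtf2h2, a subunit of the transcription and repair factor TFIIH, had closely spaced zygote libraries at 38.4 to 41.6, and was at 11.2 and 12.6 in WT and 59.8 and 40.5 in cKO 2-cell embryos. Ddx1, an RNA helicase, was low throughout, at 1.13 and 2.76 in WT and 14.9 and 5.64 in cKO 2-cell embryos. C130022K22Rik (Ccdc174 in RefSeq), which codes for a protein tied to the exon junction complex, was at 6.36 and 4.36 in WT and 26.1 and 24.9 in cKO 2-cell embryos, 39.1% of its cKO zygote mean.

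In cytosolic translation and protein homeostasis, Aimp1 had the largest fold of all 40 genes. Aimp1, a scaffold of the multi-tRNA synthetase complex, was at 13.3 and 17.0 in WT zygotes, 14.7 and 17.7 in cKO zygotes, 2.87 and 1.38 in WT 2-cell embryos and 24.0 and 31.7 in cKO 2-cell embryos. The cKO 2-cell mean was 13.1 times the WT 2-cell mean. It was 172% of the cKO zygote mean, and both libraries were above both cKO zygote libraries. Eif2b3, a subunit of the exchange factor for initiation factor eIF2, was at 19.5 and 14.9 in WT and 80.9 and 31.3 in cKO 2-cell embryos. Pdcd5, which binds the cytosolic chaperonin, was at 33.7 and 20.4 in WT and 71.2 and 148 in cKO 2-cell embryos. Among the rest were Psmg4, a proteasome assembly chaperone, Hspbap1, a partner of a small heat shock protein, and Jkamp, a membrane protein tied to degradation at the endoplasmic reticulum. They were at 18.7 and 12.6, 6.17 and 6.95, and 20.4 and 34.4 in cKO 2-cell embryos, and no WT 2-cell library of these 3 genes reached its cKO libraries.

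Of the 6 genes of membrane traffic and lipid modification, 4 rested on a single cKO library. Slc35b3, a carrier of the sulfate donor into the Golgi, was at 1.01 and 10.2 in cKO 2-cell embryos and at the floor in both WT 2-cell libraries. Muted (Bloc1s5 in RefSeq), of the lysosomal trafficking complex BLOC-1, was at 1.67 and 6.56 in cKO and 1.68 and 1.00 in WT 2-cell embryos. Pggt1b, a subunit of a protein prenyltransferase, was at 7.63 and 1.00 in cKO and at the floor in WT 2-cell embryos, and Sec24b, a COPII coat protein, was at 6.02 and 1.00 in cKO and 1.00 and 1.29 in WT. For these 4 genes the groups overlapped or nearly did. Copb2, a COPI coat protein, at 33.4 and 16.8 against 6.13 and 9.16, and the adaptor Sdcbp (syntenin), at 31.8 and 40.2 against 13.4 and 7.38, were higher in both cKO libraries.

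The last 5 genes had other roles or none known. Ankrd32 (Slf1 in RefSeq), which binds the SMC5/6 complex at DNA damage, declined the most in WT, at 12.1 and 30.6 in WT zygotes and 1.03 and 1.09 in WT 2-cell embryos. In cKO embryos it went from 22.7 and 30.0 to 6.35 and 2.74, 17.2% of the zygote mean, the smallest share kept among the 40. 2210408I21Rik, at the floor in both WT 2-cell libraries and at 4.85 and 9.03 in cKO, starts 62 bases from Ankrd32 on the other strand, and the 2 are the only members within that distance of each other. 2900060B14Rik was at 2.05 and 4.35 in WT and 16.4 and 22.2 in cKO 2-cell embryos, above all its zygote libraries, but its annotated model has only 78 bases, so its FPKM is uncertain. C330018D20Rik was at 1.85 and 4.11 in WT and 9.93 and 13.7 in cKO, and Hdhd2 at 1.83 and 1.06 in WT and 5.94 and 2.98 in cKO 2-cell embryos.

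The cKO zygote libraries, which the choice did not use, allowed a comparison of genotypes on levels that are free of the cKO 2-cell values. The 40 genes stood in cKO zygotes at a median 1.08 of their WT zygote mean, with a range of 0.282 to 1.97, against 1.02 for the other declining genes. Both cKO zygote libraries lay above both WT zygote libraries for 14 genes (15.8% of the table did so) and below for 6 (10.2% of the table). The means were higher in cKO for 25 of the 40, where 53.9% of the declining genes and 41.0% of the table were. With limma, 0 of the 40 were called in either direction and 0 had an unadjusted p under 0.05, while over all genes 3 (0.0208%) were called higher and 0 (0.00%) lower, and 324 and 84 had an unadjusted p under 0.05. The spread in this fit comes from all 8 libraries, the cKO 2-cell ones included. With only the 4 zygote libraries fitted, 0 of the 40 were called, where 8 of all genes were. In that fit 5 of the 40 had an unadjusted p under 0.05. The share of the table under that unadjusted p was not taken for this fit, so nothing is read from the 5. The WT zygote libraries that chose the genes as high also enter the ratio of cKO to WT zygotes.

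The 14 genes higher in cKO zygotes without overlap included 8 of the 16 mitochondrial genes, where 15.8% of the table was higher in this way. In each zygote library 4242 to 4747 genes of the table sat at the floor. The share among declining genes or in the mitochondrial families was not taken, so nothing is read from the 8. Mrps31 (18.2 and 13.4 in WT, 26.5 and 23.9 in cKO zygotes), Ndufa5 (34.7 and 33.4, 49.6 and 56.1) and Mrpl1 (13.7 and 16.4, 21.0 and 22.2) had the ratios 1.59, 1.55 and 1.43. Slc35b3 had 4.20 and 2.91 in WT and 7.25 and 5.92 in cKO zygotes, and 2210408I21Rik 2.41 and 6.47 against 6.87 and 10.7. The 6 genes lower without overlap were Ndufs5, Gtf2h2, Psmg4, Hspbap1, Sdcbp and Muted. With 2 libraries against 2, the exact permutation test of a single gene cannot give a two-sided p under 0.333.

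From cKO zygote to cKO 2-cell stage the 40 genes ranged from 17.2% to 241% of the zygote mean. The word retained therefore covers unlike courses. For 4 genes, Ankrd32, C330018D20Rik, Snrpb2 and Mterfd2, the cKO level fell more than 3-fold, as it did for 87.1% of the declining genes and 19.2% of the table, and they were members because the WT level fell further. For 10 genes the cKO 2-cell mean was above the zygote mean, where 47.3% of the table and 0.792% of the declining genes were. For Ict1, Rnaseh2b and 2900060B14Rik it was more than 2 times as high (29.9% of the table and 0.238% of the declining genes), which in the relative measure used here is a rise and not a level kept. Both cKO 2-cell libraries lay below both cKO zygote libraries for 20 genes, against 97.1% of the declining genes and 35.5% of the table, and above them for 5, against 32.3% of the table. With limma 7 of the 40 fell in cKO embryos, where 27.1% of the table and 92.5% of the declining genes fell, and 2 rose, Ict1 and Rnaseh2b, where 24.6% of the table rose. These shares use the cKO 2-cell libraries that chose the genes. The interaction of genotype and stage was called for 14 of the 40, each with the higher cKO effect at the 2-cell stage, where 1.58% of the table was called in that direction. It was called for 0 when any of the 4 zygote libraries was left out and for 8 with the replicate block, and nothing is read from the count, whose direction the choice of high cKO 2-cell values favours.

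**Figure D3:**
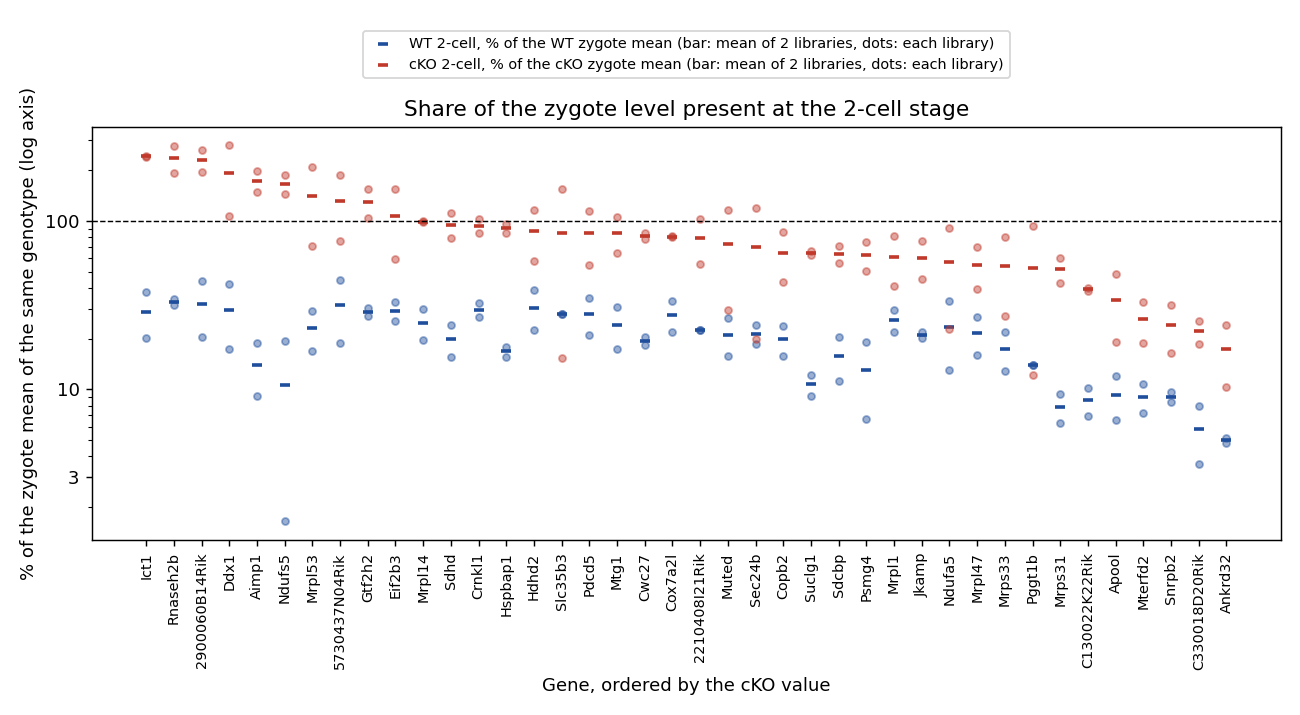
For each of the 40 genes, the 2-cell level as a percentage of the zygote mean of the same genotype, on a log axis, with bars for the mean of 2 libraries and dots for each library. WT bars lie at 33.0% or lower by the choice, while cKO bars run from 241% (Ict1) to 17.2% (Ankrd32), and several genes have cKO dots far apart.

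How far the rule repeats was read with the replicate libraries apart. Genes were chosen in 1 set of libraries and read in the other. Of the 62 genes chosen in replicate 1, 23 belonged to the group described here, as did 27 of the 68 chosen in replicate 2. The shares below cover all genes so chosen. They do not test the described group, which was itself chosen with both replicates. Chosen in replicate 1 of the 3 groups by the same ratios, 62 genes resulted. In replicate 2 the cKO 2-cell value was above WT for 48 of them (77.4%), against 23.9% of the genes that declined in replicate 1 and 27.1% of the table, and over 3 times WT for 17 (27.4%). Among all genes that declined in replicate 1 the share over 3 times was 3.70%, and it was 5.70% of the table. Chosen in replicate 2, 68 genes resulted, of which 55 (80.9%) had cKO above WT in replicate 1, against 26.3% of the declining genes and 30.9% of the table, and 20 (29.4%) were over 3 times WT, against 4.47% of the declining genes and 3.42% of the table. Both ratios were met again in the other replicate by 13 genes, in either order, of the 62 and 68 chosen. The same was true of 3.03% and 3.56% of the declining genes and 0.479% and 0.438% of the table, and most genes chosen from single libraries did not meet the full rule in the others.

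The spread between libraries at the 2-cell stage was wide for the group. The cKO 2-cell libraries differed over 2-fold for 13 of the 40 genes and the WT 2-cell libraries for 8, with medians of 1.72 and 1.54 between replicates. Replicate 2 was the higher cKO library for 24 of the 40 genes. It was also the library with the larger summed FPKM, and with each library scaled to the same sum 23 of the 40 still met the rule, against 38 with scaling to the median ratio, which added others for a total of 109 genes. Of the 40 genes, 18 had a WT 2-cell mean under 3 FPKM, and 8 had a WT 2-cell library at the floor of 1, to which the authors had set all lower values. For the 3 genes with both WT 2-cell libraries at the floor, 2210408I21Rik, Slc35b3 and Pggt1b, the fold over WT depends on that floor.

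Just inside the decline threshold were Rnaseh2b at 3.03-fold and 2900060B14Rik at 3.12-fold, and just outside it Nsun6 at 2.99-fold and 1600012F09Rik at 2.98-fold. Just inside the threshold of cKO over WT were Snrpb2 at 3.04-fold and Sec24b at 3.07-fold, and just outside it Spty2d1 at 2.99-fold and Snrpd1 at 2.96-fold. The genes outside were much like those inside, and Snrpd1, another spliceosome protein, was at 238 in WT and 704 in cKO 2-cell embryos (means of 2 libraries).

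The 40 genes tended to have short transcripts, as did the other genes over 3-fold higher in cKO 2-cell embryos, with a median of 1541 bases. The median length of the longest annotated transcript was 1820 bases for the 40 genes, 1323 for the 16 mitochondrial ones and 2243 for the other 24, against 2513 for the other declining genes and 2747 for all genes with a length. Over the whole table the share of genes over 3-fold higher in cKO 2-cell embryos fell from 10.1% of genes of up to 1000 bases to 1.12% of genes over 6000 bases. Among declining genes it went from 7.14% to 0.00%. Across 13343 genes the Spearman correlation of length with the log2 ratio of cKO to WT was -0.0973 at the 2-cell stage and -0.0420 in zygotes, a description over genes that share libraries. FPKM divides by length, and the part that transcript length plays in the higher level of these genes was not tested.

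**Figure D4:**
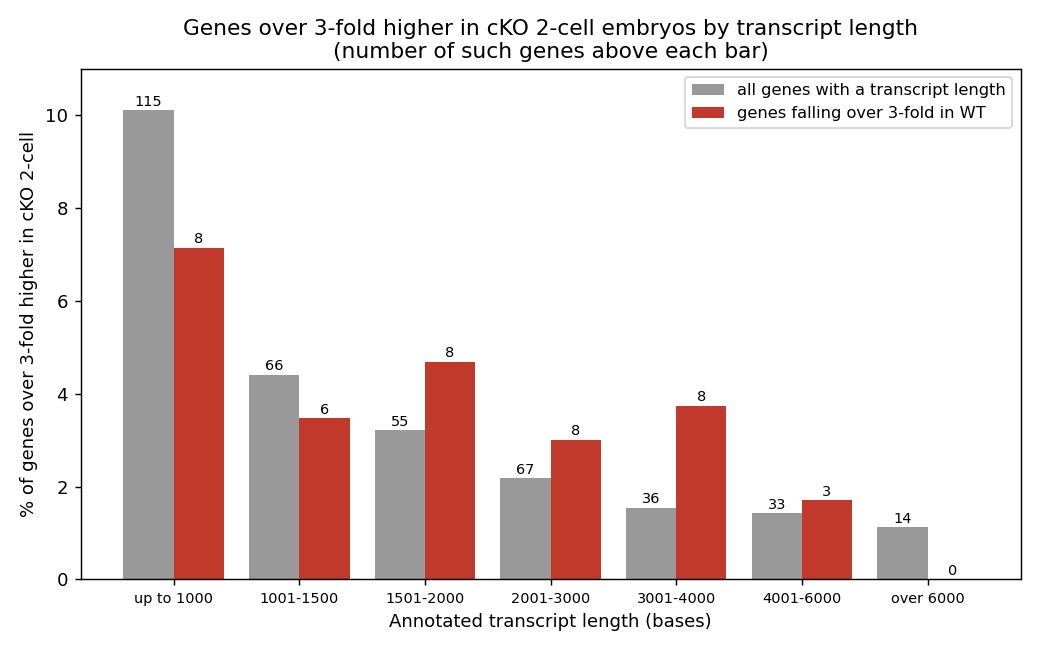
Percentage of genes over 3-fold higher in cKO than WT 2-cell embryos by length of the longest annotated transcript in bases, for all genes (grey) and for genes falling over 3-fold in WT (red), with the number of higher genes above each bar. The grey bars fall from 10.1% to 1.12%, and the red bars from 7.14% to 0.00% less evenly.

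The genes lie on 17 chromosomes in mm9, with 7 on chromosome 13 and 5 on chromosome 6. Aimp1 is at chr3:132323462-132346843, Ict1 at chr11:115265066-115273988, Mrps31 at chr8:23521812-23540137, Sdhd at chr9:50404443-50411954 and Snrpb2 at chr2:142888775-142898589. Exons of 13 of the 40 overlap an exon of another annotated gene, mostly on the other strand, and the libraries do not keep the strand. Among them are Hdhd2, which overlaps Ier3ip1 on the same strand, and Mrpl47, which overlaps Ndufb5 and Actl6a on the other. Ier3ip1 went in means from 1.00 in WT zygotes to 25.3 in WT and 72.3 in cKO 2-cell embryos, and Ndufb5 went from 57.3 to 19.5 and 42.6, so reads of these pairs may be shared.

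Promoter sequences were available in RefSeq (GRCm38.p6) for 33 of the 40 genes, covering 250 bases before and 50 after each start. Searched on both strands, the ETS core CCGGAAG was in promoters of 14 of the 33 (42.4%), against 18.0% of the 11408 table genes with a promoter and 18.6% of the declining genes. The NRF1 motif was in those of 8 (24.2%), against 10.5% and 12.8%. The TATA box TATAAA was in 3 (9.09%), against 10.3% of table genes, and the YY1 motif AAGATGGCG in 1 (3.03%), against 3.17%. A gene with several starts counted as holding a motif when any of its promoters did. These motifs were picked after the genes were known and the shares are a description. Among the 16 mitochondrial members the ETS core and the NRF1 motif were each in 5 (31.2%). The promoters of Ict1 (chr11:115403502-115403801 on the plus strand) and Mrpl53 (chr6:83108858-83109157 on the plus strand) are printed as examples. So are those of Sdhd (chr9:50603800-50604099 on the minus strand) and Snrpb2 (chr2:143062819-143063118 on the plus strand). Each holds 2 or 3 matches and does not stand for the group. The promoters of Mrps31, Suclg1, Cox7a2l and Crnkl1, genes of the same functions, held none of the motifs. The examples are written 5′ to 3′ along the gene with these motifs in capitals.
Ict1: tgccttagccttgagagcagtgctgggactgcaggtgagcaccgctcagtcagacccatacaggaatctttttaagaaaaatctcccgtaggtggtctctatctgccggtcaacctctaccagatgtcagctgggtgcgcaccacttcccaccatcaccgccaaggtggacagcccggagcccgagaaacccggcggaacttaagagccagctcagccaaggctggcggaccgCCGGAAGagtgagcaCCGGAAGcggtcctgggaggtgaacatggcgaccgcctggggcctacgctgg
Mrpl53: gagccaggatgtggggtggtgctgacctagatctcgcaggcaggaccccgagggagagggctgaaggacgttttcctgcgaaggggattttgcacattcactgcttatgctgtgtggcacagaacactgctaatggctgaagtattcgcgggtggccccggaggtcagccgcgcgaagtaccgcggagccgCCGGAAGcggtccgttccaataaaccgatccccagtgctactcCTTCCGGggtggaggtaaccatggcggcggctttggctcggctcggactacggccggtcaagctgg
Sdhd: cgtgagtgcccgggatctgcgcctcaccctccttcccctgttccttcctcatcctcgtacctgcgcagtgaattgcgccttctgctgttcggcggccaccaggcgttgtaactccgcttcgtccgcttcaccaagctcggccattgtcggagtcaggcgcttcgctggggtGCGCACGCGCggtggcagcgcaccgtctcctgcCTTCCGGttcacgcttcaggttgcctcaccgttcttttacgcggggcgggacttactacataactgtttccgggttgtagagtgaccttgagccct
Snrpb2: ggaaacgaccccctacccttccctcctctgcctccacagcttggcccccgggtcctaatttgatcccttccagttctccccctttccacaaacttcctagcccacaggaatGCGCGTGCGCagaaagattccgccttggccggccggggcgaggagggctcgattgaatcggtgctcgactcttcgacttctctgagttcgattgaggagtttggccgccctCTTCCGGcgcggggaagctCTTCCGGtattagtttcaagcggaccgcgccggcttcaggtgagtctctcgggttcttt
Ict1 and Mrpl53 hold the ETS core in 2 places each, Sdhd holds an NRF1 and an ETS motif, and Snrpb2 holds an NRF1 motif and 2 ETS cores near the start.

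The 3′ ends were searched because the length of the poly(A) tail of stored mRNA is set there. In the last 100 bases of the 3′ UTR of the longest transcript (GENCODE M1 on mm9, sense strand), 35 of the 40 genes could be read. The polyadenylation signal AATAAA was in 16 of the 35 (45.7%), against 67.6% of the other declining genes and 65.8% of the table. The cytoplasmic polyadenylation element TTTTAT was in 3 (8.57%), against 16.5% and 14.9%, and its longer form TTTTAAT in 2 (5.71%), against 5.55% and 5.40%. The Pumilio motif TGTANATA was in 0, against 3.67% of the other declining genes, and the AU-rich motif TATTTAT in 1 (2.86%), against 4.14%. The windows of 24 bases around such matches are shown for some of the genes with a match, picked after their values were seen, with the match in capitals.
Sdhd: aaatttttaAATAAAatattatat
Suclg1: gagacagatAATAAAtctatcatt
Mrps33: tacaataatAATAAAtgctataaa
Snrpb2: ttttttccaAATAAAagtaaaatt
Cox7a2l: ggactgcggAATAAAcactggaat
Mrpl53: ccaagtacaTTTTAATtaaatatt
The first 5 hold the polyadenylation signal, and Mrpl53 has the longer polyadenylation element without AATAAA in the window searched. The annotated end may not be the end used in oocytes, so a missing match says only that these letters are not in the window.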

How the data were processed

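RNA-seq FPKM of 4 groups of 2 libraries was analysed, and 7 samples of H2AK119ub1 ChIP-seq were not used here. The authors trimmed the reads to 50 bases, mapped them to mm9 with TopHat2 2.1.1 and computed the deposited FPKM values with Cufflinks 2.2.1. They left out genes under 1 FPKM in all libraries and set lower values to 1, and the 14392 genes of the table were checked against this. FPKM holds no counts, so depth is unknown and no counting interval was given. Precision rests on 2 libraries a group.

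The rule was applied to means of the 2 libraries of each group. limma 3.58.1 (R 4.3.3) was fitted on log2(FPKM + 1) of all 8 libraries, with a trend in the prior, 4 groups and 4 residual degrees of freedom, and p-values were adjusted over all 14392 genes by Benjamini-Hochberg. A fold change computed on that log scale is smaller than the true one for low genes. The interaction of genotype and stage came from the same fit. The fits were tested on simulated data. Python 3.11.15, numpy 2.4.6, pandas 2.3.3, scipy 1.17.1 and matplotlib 3.10.9 were used. Transcripts came from GENCODE M1 on mm9, with 13343 genes (92.7%) matched by symbol to a transcript, and promoters from RefSeq.

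The members and lists were chosen with earlier results of these data known. The genes named were to be the 8 largest folds among genes with each cKO 2-cell library over 3 times each WT one, the 8 highest in cKO zygotes, the 5 largest and 5 smallest ratios of cKO 2-cell to cKO zygote, the 2 on either side of each threshold, gene families by symbol, and clone-named genes only where no other filled the place. The remaining members, clone-named ones included, and the roles and mitochondrial families were named after their values were seen. The sources used here describe no pairing of embryos. Same-numbered libraries deviated together with a correlation of 0.497 between zygote groups and -0.239 between 2-cell groups, and the numbers were not taken to pair the samples. The value of the 2-cell groups says nothing of the zygotes. Whether same-numbered zygote libraries share a source was not tested, as the replicate block was fitted over all 4 groups and not to the zygotes alone. Alternatives covered pseudocounts, scalings, filters, thresholds, the replicate block and leaving out each library.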

Additional observations from a re-analysis of the deposited data

Results flagged for a closer look

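The effect of genotype differed between zygote and 2-cell stage for 14 of the 40 genes by limma's interaction of genotype and stage (adjusted over all 14392 genes), all in the direction of a higher cKO effect at the 2-cell stage, where 1.58% of the table was called in that direction. These were Aimp1, Ict1, Mrps31, Rnaseh2b, 2900060B14Rik, Sdhd, Suclg1, Cwc27, C130022K22Rik, Gtf2h2, Cox7a2l, Hspbap1, Crnkl1 and Sdcbp. The count uses the 2-cell libraries that chose the genes, a choice that favours this direction, and nothing is read from it. It was 0 when any of the 4 zygote libraries was left out, and 8 with the replicate block. Groups of 2 libraries allow no search for single libraries far from the rest.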

How the results depend on the processing

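The number of genes that met the rule, 40, depended on how low values, scale and threshold were treated. It was 23 with 1 added to each FPKM, 8 when each library had to pass against each, 176 at 2-fold, 5 at 5-fold, 109 with median-ratio scaling and 23 with sum scaling, and 38 to 54 when a library was left out. Of the 40, 38 remained with median-ratio scaling and 23 with sum scaling. Without WT 2-cell replicate 2 the rule found 44 genes, 25 of them among the 40, and without cKO 2-cell replicate 2 it found 52, 28 of them among the 40. Median-ratio scaling moves the all-gene median of the log2 cKO/WT ratio at the 2-cell stage from -0.38 to 0. The 16 mitochondrial members were 8 without WT 2-cell replicate 2 and 9 without cKO 2-cell replicate 2.

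The 33 genes called by limma between cKO and WT 2-cell embryos were 0 when only the 4 libraries compared were fitted, which leaves 2 residual degrees of freedom, and 17 to 31 when a library was left out, with 17 without either WT 2-cell library and 19 without either cKO zygote library. The 35 called lower from WT zygote to WT 2-cell embryos were 23 to 38 when a library was left out. The 7 called lower from cKO zygote to cKO 2-cell embryos were 11 with sum scaling, 4 with only the 4 libraries compared and 3 to 14 when a library was left out, with 3 without cKO zygote replicate 2 and 14 without cKO 2-cell replicate 2. A fit that leaves out a library assumes that the lone sample varies like the other groups. In zygotes 0 of the 40 were called under every alternative run, with up to 5 at an unadjusted p under 0.05.

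With the replicate number as a block, 37 genes met the rule, the same as for geometric means by construction, and limma called 0, 30, 36 and 7 of the 40 in the 4 comparisons above, taken in the order zygotes, 2-cell embryos, WT over time and cKO over time. With the 2-cell numbers crossed, a pairing added after the data were seen, 33 were called at the 2-cell stage. Of 280 values of single genes under other scalings, a pseudocount or without a 2-cell library, 224 moved by no more than the spread between replicates and 1 reversed. That spread is each gene's own, so a widely spread gene passes easily and the count does not measure stability. Slc35b3 had a spread (SD) of 2.36 in log2. Cwc27, with a spread of 0.031, moved in every setting although its log2 ratio stayed at 2.14 to 2.97. Without cKO 2-cell replicate 1, the log2 ratio of Sec24b was -0.19 (2.39 without cKO 2-cell replicate 2), and that of Pggt1b was 0. The cause of these changes was not tested. Depth is unknown, and values under 1 FPKM cannot be compared.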
